A study of Mus musculus with 8 samples.

Results

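The 49 genes described here encode the protein folding machinery of the endoplasmic reticulum (ER) and the proteins that sense and answer ER stress. They were taken as the rows of the deposited table of normalized counts whose symbol, written in capitals there, stood in a list of 49 names, and all 49 were found among 16119 rows. After removal of genes with low values (below 10 normalized counts in all but 1 library or in every library) 14703 genes remained, and all 49 were among them. The list held 6 luminal and lectin chaperones, 10 disulfide isomerases and oxidases, 6 co-chaperones and small stress-induced luminal proteins, 8 genes of ER-associated degradation (ERAD), 9 stress sensors and transcription factors, and 10 genes of translocation, signal peptide cleavage and export.

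The 8 libraries held RNA of wild-type C57BL/6 mice. Thyroid follicular cell organoids (TFCOs), three-dimensional cultures grown from thyroid cells of a mouse, came from 2 lines, mThy14 and mThy16, each sampled once at an early and once at a late passage. The other libraries were 2 thyroid tissues and 2 lung tissues, the latter serving as an unrelated control. All TFCOs were kept in expansion medium with R-spondin 3, A83-01, EGF, FGF10 and forskolin, a compound that raises cyclic AMP, and no further treatment was given. Early and late TFCOs therefore shared their animals, and with 2 libraries per group the p-values measure only the spread between these samples.

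Thyroid follicular cells make thyroglobulin (TG), a very large glycoprotein that carries many disulfide bonds and is the scaffold on which thyroid hormone is formed. Nascent TG enters the ER through the SEC61 channel, loses its signal peptide, receives glycans, is bound by HSPA5, HSP90B1, CALR and CANX, and is oxidized by protein disulfide isomerases before it leaves in coated vesicles, while misfolded chains are returned to the cytosol and degraded. When unfolded chains accumulate, the membrane sensors ERN1 (IRE1), EIF2AK3 (PERK) and ATF6 start the unfolded protein response (UPR), which acts through XBP1, ATF4 and cleaved ATF6 to raise the same chaperones. The question asked of the 8 libraries was whether these genes stepped with the TG load.

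A short DNA element through which ATF6 and XBP1 raise chaperone genes is the ER stress response element (ERSE), which consists of CCAAT, any 9 bases and CCACG. It was searched on both strands of the RefSeq promoters (GRCm38.p6, 250 bases before to 50 bases after each start), which were found for 40 of the 49 genes. At least 1 match stood in 10 of these 40 genes (25.0%) and in 37 of all 27025 genes with a promoter (0.137%). The list was chosen for ER folding and stress genes, so this higher share is no independent finding. The 10 genes were HSPA5, HSP90B1, CALR, CANX, PDIA6, ERO1B, DNAJC3, CRELD2, DERL3 and SYVN1. The HSPA5 stretch is short because it lies within an exon of a longer transcript in GENCODE M21. The stretches around the matches are printed because these 10 genes include the main chaperones and some of the genes with the largest differences below. Each stretch runs 5′ to 3′ on the strand of its gene, the capitals mark the outer parts of the ERSE, and where the element lies on the opposite strand it reads CGTGG, 9 bases, ATTGG.
HSPA5, chr2:34772020-34772048, plus strand: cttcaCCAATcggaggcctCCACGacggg
HSP90B1, chr10:86705513-86705676, minus strand: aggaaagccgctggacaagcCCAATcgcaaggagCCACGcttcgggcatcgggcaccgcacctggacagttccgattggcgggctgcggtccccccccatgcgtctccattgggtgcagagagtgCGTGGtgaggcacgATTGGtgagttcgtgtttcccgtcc
CALR, chr8:84847055-84847113, minus strand: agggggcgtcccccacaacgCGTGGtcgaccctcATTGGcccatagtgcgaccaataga
CANX, chr11:50325780-50325838, minus strand: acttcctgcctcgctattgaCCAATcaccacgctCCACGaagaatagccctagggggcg
PDIA6, chr12:17266471-17266529, plus strand: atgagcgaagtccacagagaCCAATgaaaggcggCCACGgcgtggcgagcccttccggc
ERO1B, chr13:12565662-12565720, plus strand: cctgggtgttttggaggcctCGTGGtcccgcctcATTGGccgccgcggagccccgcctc
DNAJC3, chr14:118937807-118937865, plus strand: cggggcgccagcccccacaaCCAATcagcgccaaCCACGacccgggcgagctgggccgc
CRELD2, chr15:88819500-88819558, plus strand: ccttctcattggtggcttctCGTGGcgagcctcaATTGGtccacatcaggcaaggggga
DERL3, chr10:75893222-75893280, plus strand: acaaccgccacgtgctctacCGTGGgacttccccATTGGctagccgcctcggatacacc
SYVN1, chr19:6046512-6046570, plus strand: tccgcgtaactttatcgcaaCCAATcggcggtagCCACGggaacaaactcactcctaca

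HSP90B1 held 2 matches, 1 on each strand, and the other 9 genes held 1 each. The matches began between 212 and 44 bases before the RefSeq start, the nearest being that of SYVN1. The ERSE-II, which consists of ATTGG, any base and CCACG, was found in HERPUD1 and DNAJB11, 2 of the 40 genes (5.0%) against 0.0444% of all genes. In HERPUD1, the ubiquitin-like ERAD protein, it stood just before the start, with the capitals marking its outer parts.
HERPUD1, chr8:94386357-94386407, plus strand: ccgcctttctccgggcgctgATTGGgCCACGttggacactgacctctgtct
The XBP1 element TGACGTGG was found in SEC24D, TXNDC5 and TXNDC11 (7.5% against 0.714% of all genes), and the ATF4-type element TGATGNAA in HERPUD1, TRIB3 and TXNDC5 (7.5% against 4.51%). The ERSE-II and the XBP1 element can share bases with an ERSE, but no gene here held an ERSE beside either of them. A match describes letters only, and no binding was measured in these samples.

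The reads counted on genes numbered 9755081 to 16904865 in a library, and every value above 0 was a whole multiple of a per-library step within 0.01 of a read. The libraries formed 2 sets that cut across the groups. The 4 TFCO libraries and thyroid tissue 1 stood on one side, and thyroid tissue 2 and both lung tissues on the other. Outside the list, 44 genes had no read in the second set but never less than 50 normalized counts in the first, and 16 genes showed the reverse. None of the 49 genes was at 0 in any library, and the lowest was DERL3 in late mThy16 with 3 reads. Among the 49 genes, 8 (HYOU1, PDIA4, ERP29, MANF, SYVN1, EDEM2, ATF4 and SPCS1) were higher in every library of the first set than in any of the second, against 23.3% of all genes tested. Another 6 (TXNDC5, DNAJC3, ATF6, TRIB3, SSR3 and SPCS3) were lower, against 20.3%. TFCO and lung tissue lie in different sets, so tissue and library set cannot be told apart in that comparison, and values within a set are given beside results where they differ. Only thyroid tissue lies in both sets, so a fit with the library set as a term takes the set difference from thyroid tissue 1 against thyroid tissue 2 alone. Its values for TFCO minus lung therefore do not separate tissue from set, and its values within a set rest on 1 thyroid library.

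In the thyroid tissues TG took up 12.0% and 17.2% of all normalized counts. In the TFCOs it made up 0.922% in early mThy14, 0.473% in late mThy14, 0.102% in early mThy16 and 0.0787% in late mThy16, and in lung 0.00023% and 0.00231%. The corresponding normalized counts were 1526002 and 2175016 in thyroid tissue, 126441, 64646, 12225 and 9532 in the TFCOs in the same order, and 27.6 and 263 in lung. The 3 tissues thus fell into separate ranges, and within the TFCOs both mThy14 libraries were above both mThy16 libraries. TG in TFCOs was below thyroid tissue by a log2 difference of -5.87 ± 1.31 (SE), which missed the threshold (limma, adjusted p = 0.0620), and above lung by 8.49 ± 1.31 (adjusted p = 0.00835). The call against lung was lost with the library set as a term (9.0006, limma, adjusted p = 0.151), without lung tissue 1 (6.89, adjusted p = 0.151) and without lung tissue 2 (10.09, adjusted p = 0.0530).

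Summed over the 49 genes and taken as a share of the normalized counts without TG, the folding and stress genes made up 2.56% and 1.98% in thyroid tissue, 2.24% and 1.47% in early and late mThy14, 1.29% and 1.34% in early and late mThy16, and 0.877% and 0.977% in lung. Lung was lowest, and early mThy14 lay between the thyroid tissues. TG counts were 5.35 and 10.5 times the sum of the 49 genes in thyroid tissues 1 and 2, 0.416 and 0.323 times that sum in early and late mThy14, and 0.0790 and 0.0587 times in early and late mThy16. Per kilobase of the longest annotated transcript, TG stood at 12.1 and 45.2 times the level of HSPA5 in the thyroid tissues, at 1.33 and 1.28 times in early and late mThy14, and at 0.259 and 0.180 times in early and late mThy16. Per kilobase values assume reads along the whole transcript, and the labels describe an adapted CEL-Seq protocol, which counts 3′ ends. TG spanned 0.00023% to 17.2% of all counts, and the summed folding genes 0.877% to 2.56% of the counts without TG. As a share of all counts the folding genes made up 2.25% and 1.64% in thyroid tissues 1 and 2 and 2.22% in early mThy14. In bulk RNA, fewer cells of a type and less RNA per cell cannot be told apart.

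**Figure D1:**
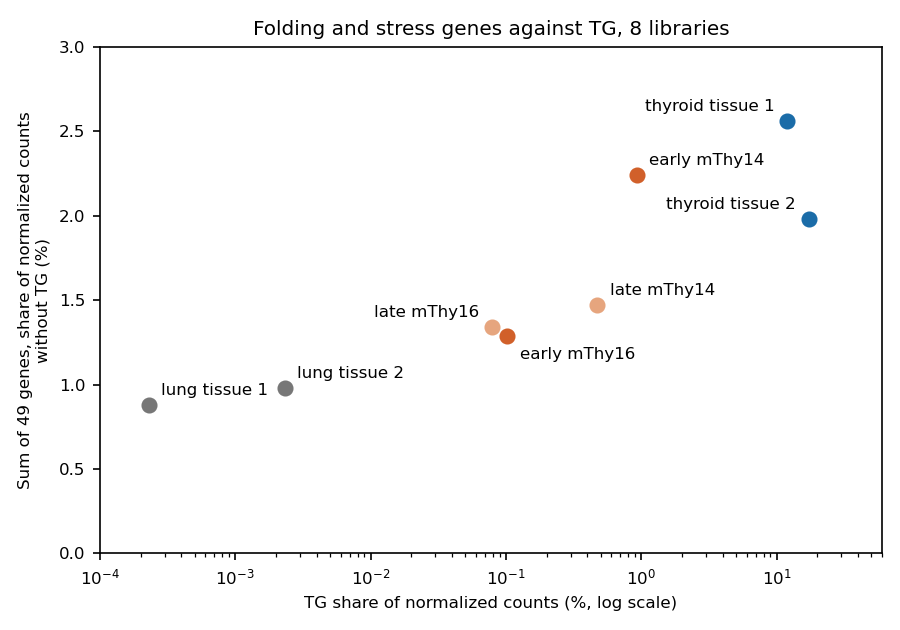
Share of TG in the normalized counts (x axis, %, log scale) against the summed share of the 49 folding and stress genes in the counts without TG (y axis, %) for each of the 8 libraries, coloured by group. Lung lies at 0.877% and 0.977%, the mThy16 TFCOs at 1.29% and 1.34%, and early mThy14 at 2.24%, between thyroid tissue 2 (1.98%) and thyroid tissue 1 (2.56%).

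No single gene of the 49 followed the order of TG, with both thyroid tissues above all TFCOs and all TFCOs above both lung tissues. Of all genes tested, 1.36% did. The reverse order was found for 0 of the 49 genes and 0.945% of all genes. Near misses were HSPA5, HSP90B1, HYOU1, ERP44, TXNDC11 and MANF, for which thyroid tissue 1 was above every TFCO library and every TFCO library above both lung tissues, but thyroid tissue 2 was not above the TFCOs. The count depended on the scaling. After quantile normalization 4 genes (HSP90B1, HYOU1, CALR and SDF2L1) were in the order, 8.16% of the 49 against 1.54% of all genes. After scaling all libraries to the same total without TG 2 genes (HSP90B1 and SEC61A1) were, 4.08% against 1.93%.

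Every TFCO library was above both lung tissues for 20 of the 49 genes (34.4% of all genes tested), among them 6 of 6 luminal and lectin chaperones and 7 of 10 disulfide isomerases and oxidases, but 1 of 6 co-chaperones. Every TFCO library was below both lung tissues for 12 genes (33.3% of all genes). Both thyroid tissues were above every TFCO library for 13 genes (17.3% of all genes), which included 5 of 6 co-chaperones but none of the 6 chaperones and none of the 10 disulfide isomerases and oxidases. They were below every TFCO library for 2 genes, CREB3L1 and SPCS1 (17.2% of all genes). Both thyroid tissues were above both lung tissues for 28 genes (26.2% of all genes) and below for 5 (27.5% of all genes). These counts by role depended on the scaling, and no test compared the roles. Both thyroid tissues were above every TFCO library for 19 of the 49 genes after quantile normalization (14.5% of all genes) and for 18 with the same total without TG (23.1%), among them 3 and 1 of the 6 chaperones, 0 and 0 of the 10 isomerases and oxidases and 5 and 5 of the 6 co-chaperones. Among the chaperones and isomerases above lung in every TFCO library, HYOU1, PDIA4 and ERP29 also separated the library sets.

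**Figure D2:**
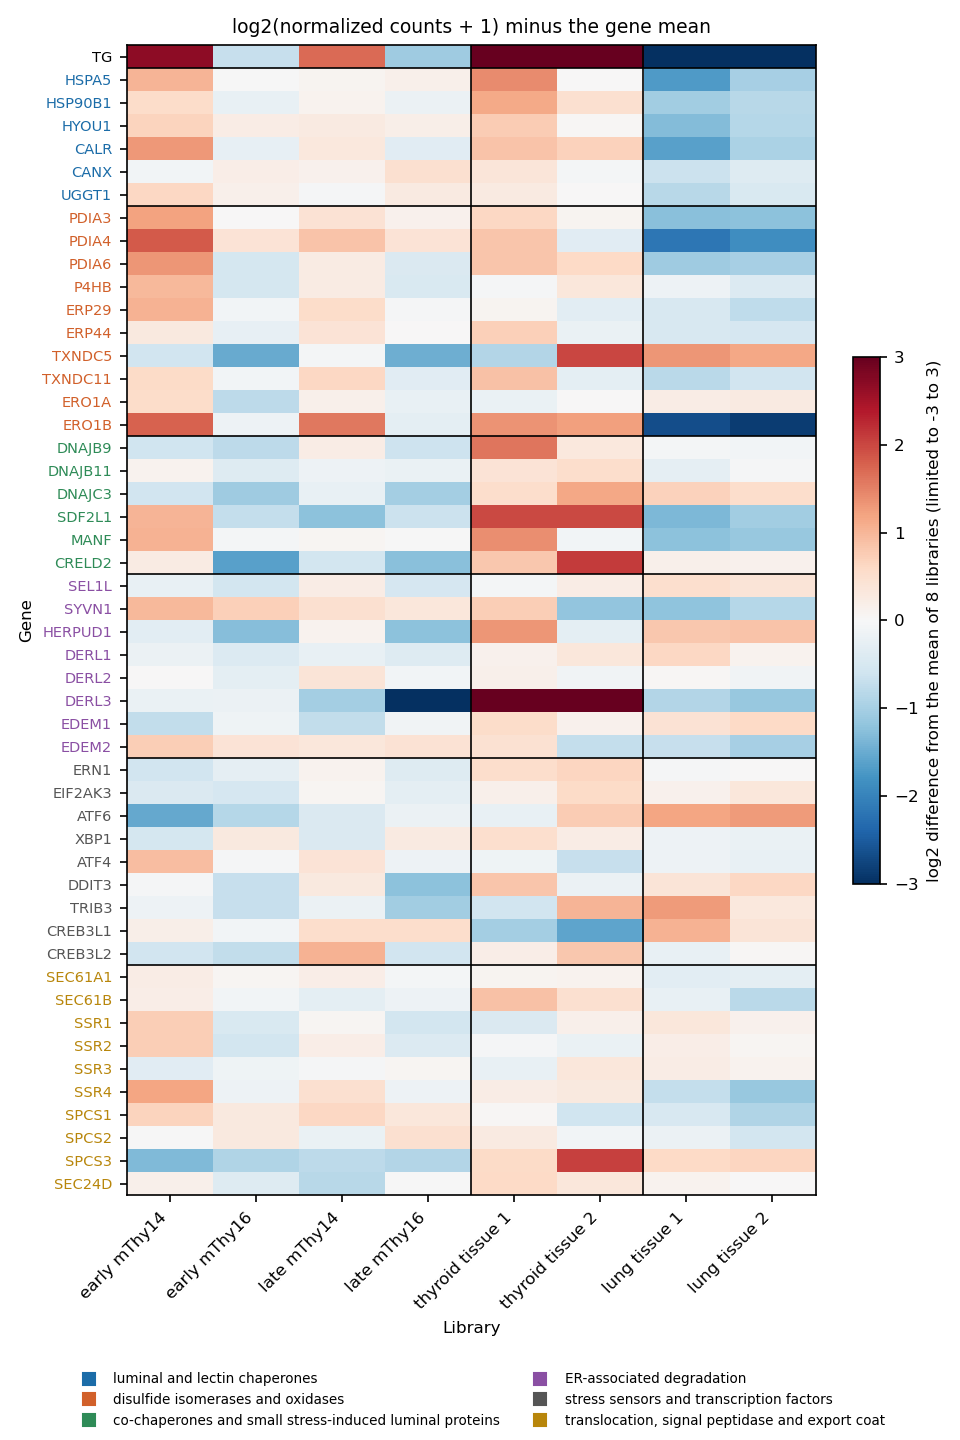
Heat map of TG and the 49 folding and stress genes (rows, grouped by role) in the 8 libraries (columns), as log2(normalized counts + 1) minus the mean of each gene over the libraries. TG steps from lung through TFCOs to thyroid tissue, the 6 chaperones are lowest in lung, SDF2L1 and DERL3 are high in both thyroid tissues, and TXNDC5, SYVN1 and EDEM2 follow the library sets.

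Among the luminal chaperones, HSPA5 (BiP), the main ER member of the HSP70 family, was at 54926 and 20895 normalized counts in thyroid tissues 1 and 2. It was at 41447 and 21913 in early and late mThy14, 20507 and 23009 in early and late mThy16, and 6370 and 10231 in lung. Thyroid tissue 1 and early mThy14 were highest, thyroid tissue 2 and the other 3 TFCO libraries were nearly level, and both lung tissues were lowest. The TFCO minus thyroid difference was -0.41 (log2, 95% interval -2.10 to 1.29), and thyroid tissue minus lung was 2.07 (0.37 to 3.77), which did not pass the adjustment (limma, adjusted p = 0.145).

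HSP90B1 (GRP94), the ER member of the HSP90 family, was at 39171 and 25066 normalized counts in thyroid tissue, 26285, 19106, 15444 and 15864 in early mThy14, late mThy14, early mThy16 and late mThy16, and 8719 and 9979 in lung. Early mThy14 lay above thyroid tissue 2, and the other 3 TFCO libraries lay below both thyroid tissues. CALR, the soluble lectin chaperone that holds glycoproteins during folding, was at 29765 and 26389 in thyroid tissue, 40471, 20542, 13757 and 13060 in the TFCOs in the same order, and 5350 and 8441 in lung. Early mThy14 had the highest CALR of all 8 libraries. CANX, its membrane-bound relative, was at 10824 and 7970 in thyroid tissue, 7886, 9119, 9578 and 11704 in the TFCOs, and 5359 and 6391 in lung. CANX was the chaperone in which both mThy14 libraries were below both mThy16 libraries.

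HYOU1, which exchanges the nucleotide of HSPA5, passed the test between TFCOs and lung. It was at 5011, 3811, 3675 and 3550 normalized counts in early mThy14, late mThy14, early mThy16 and late mThy16, 5345 and 3234 in thyroid tissue, and 1270 and 1725 in lung. The TFCO minus lung difference was 1.42 ± 0.41 (log2, SE, limma, adjusted p = 0.0455), and 9.83% of all genes were called higher in TFCOs than in lung. It was lost with the library set as a term (0.70, adjusted p = 0.562), and it is 1 of the 8 genes that separated the sets. UGGT1, the glucosyltransferase that returns misfolded glycoproteins to CALR and CANX, ranged from 1734 to 2727 in TFCOs, from 1796 to 2120 in thyroid tissue and from 993 to 1288 in lung. Over the 6 chaperones the median difference was -0.24 for TFCO minus thyroid tissue and 1.62 for thyroid tissue minus lung, where all 6 were above 0.

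Among the disulfide isomerases, PDIA4 was at 22996, 11708, 8540 and 8600 normalized counts in early mThy14, late mThy14, early mThy16 and late mThy16, 11496 and 5125 in thyroid tissue, and 1432 and 1776 in lung. All TFCO libraries were far above lung and above thyroid tissue 2, and both mThy14 libraries were above thyroid tissue 1 as well. PDIA4 rose in TFCOs against lung by 2.89 ± 0.55 (log2, SE, limma, adjusted p = 0.0159), or 1.73 with the library set as a term (adjusted p = 0.295). P4HB, the archetypal disulfide isomerase and a subunit of prolyl hydroxylase, was at 21898, 13142, 7754 and 8131 in the TFCOs in the same order, 10929 and 14075 in thyroid tissue, and 9991 and 8349 in lung. Its mThy16 values lay below both lung values, so that P4HB did not separate TFCOs from lung.

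ERO1B, the oxidase that recharges disulfide isomerases and is known for its level in professional secretory cells, was at 5816 and 5115 normalized counts in early and late mThy14. It was at 1527 and 1388 in early and late mThy16, 4301 and 4009 in thyroid tissue, and 270 and 234 in lung. The mThy14 libraries lay above thyroid tissue, the mThy16 libraries below it, and all 6 lay far above lung. ERO1B passed the test for TFCO minus lung, 3.48 ± 0.59 (log2, SE, limma, adjusted p = 0.0114), but not with the library set as a term, where the difference was 3.38 (adjusted p = 0.209). It also passed for thyroid tissue minus lung, 4.04 ± 0.59 (adjusted p = 0.0153). Within the second library set thyroid tissue 2 exceeded lung by 3.99 (adjusted p = 0.0575).

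The other isomerases were PDIA3, which works with CALR and CANX, and PDIA6, ERP29, ERP44, TXNDC5, TXNDC11 and the oxidase ERO1A. None of them passed in any comparison. PDIA3, PDIA6, ERP29, ERP44 and TXNDC11 were higher in every TFCO library than in lung, PDIA3 for instance at 20664 to 47508 against 8643 and 8670 normalized counts. TXNDC5 followed the library sets, with 343 to 928 in TFCOs and 531 in thyroid tissue 1 but 3894 in thyroid tissue 2 and 2188 and 2426 in lung. Over the 10 genes the median TFCO minus thyroid difference was -0.10.

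**Figure D3:**
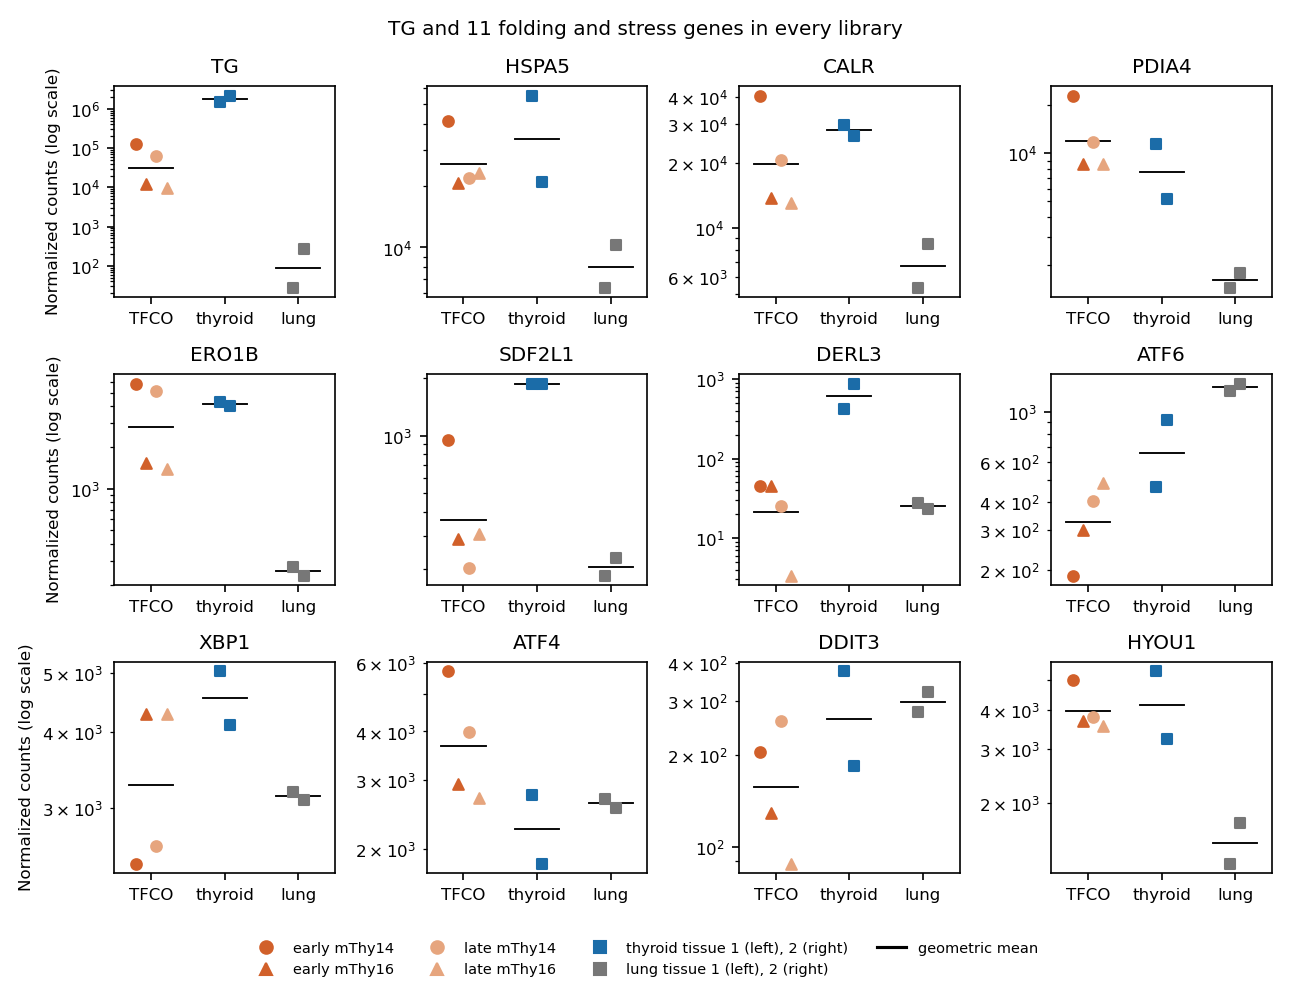
Normalized counts (log scale) of TG and 11 folding and stress genes in each library, with circles for mThy14, triangles for mThy16, squares for tissues and lines for the geometric mean of each group. ERO1B and PDIA4 are higher in all TFCOs than in lung, SDF2L1 and DERL3 are higher in both thyroid tissues than in all TFCOs, and XBP1 is lower in mThy14 than in mThy16.

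SDF2L1, a small luminal partner of HSPA5 and its J-domain co-chaperones, was at 1876 and 1876 normalized counts in the thyroid tissues. It was at 954 and 202 in early and late mThy14, 289 and 304 in early and late mThy16, and 185 and 229 in lung. Both thyroid tissues were above every other library, and 3 of 4 TFCO libraries were close to lung. SDF2L1 fell in TFCOs against thyroid tissue by 2.37 ± 0.37 on the log2 scale (SE, limma, adjusted p = 0.0202), where 3.05% of all genes were called lower. It rose in thyroid tissue against lung by 3.18 ± 0.37 (adjusted p = 0.00779), where 2.89% of all genes were called higher. The difference was as large within the library sets, -2.37 for TFCO minus thyroid tissue 1 (adjusted p = 0.0662) and 3.18 for thyroid tissue 2 minus lung (adjusted p = 0.0246). The gene lies at chr16:17130138-17132383 on the minus strand (GENCODE M21, GRCm38).

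DERL3, a membrane protein of ERAD that is known from secretory cells, was at 425 and 882 normalized counts in thyroid tissues 1 and 2. It was at 44.98 and 24.98 in early and late mThy14, 45.6 and 3.35 in early and late mThy16, and 27.6 and 22.9 in lung. Both thyroid tissues were far above all TFCOs, early mThy14 included, whose TG was the highest of the cultures. DERL3 fell in TFCOs against thyroid tissue by 4.79 ± 0.78 on the log2 scale (SE, limma, adjusted p = 0.0236) and rose in thyroid tissue against lung by 4.55 ± 0.78 (adjusted p = 0.0229). Within the sets it differed by -4.26 (TFCO minus thyroid tissue 1, adjusted p = 0.0717) and 5.08 (thyroid tissue 2 minus lung, adjusted p = 0.0321). Leaving out a TFCO library moved the TFCO minus thyroid difference to between -5.64 without early mThy16 and -3.93 without late mThy16, the library with 3 reads. The gene lies at chr10:75893413-75895941 on the plus strand.

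SDF2L1 and DERL3 were the 2 of the 49 genes called lower in TFCOs than in thyroid tissue, and 0 were called higher (0.599% of all genes). At an unadjusted p under 0.05 by limma the counts were 7 lower and 1 higher, against 1736 and 1005 of the 14703 genes tested. No call was left with the library set as a term, where the smallest adjusted p of the 49 genes was 0.0662. Without thyroid tissue 2, or without either lung tissue, no call was left either. Without thyroid tissue 1 there were 7 lower and 2 higher, 14.3% and 4.08% of the 49 genes against 14.6% and 13.2% of all genes. Leaving out a tissue leaves 1 library in its group, so that the spread comes from the other groups and such counts are not like the main one. In the main fit the median difference of the 49 genes was -0.41 against 0.05 for all genes tested, with 33 genes below 0 and 16 above.

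The co-chaperones were the role with the lowest median for TFCO minus thyroid tissue, -1.49, and 6 of 6 were below 0. DNAJB9 and DNAJC3, J-domain partners of HSPA5, were at -1.42 (limma, adjusted p = 0.180) and -1.56 (adjusted p = 0.0984). DNAJB9 was at 3474 and 1423 normalized counts in thyroid tissue and 662 to 1321 in TFCOs, and DNAJC3 at 3378 and 5242 against 1124 to 2015. CRELD2, a small secreted ER stress protein, was at 898 and 2185 in thyroid tissue and 163 to 602 in TFCOs, a difference of -2.25 (adjusted p = 0.0941). These groups did not overlap, but none of these 3 differences passed the adjustment. MANF, a secreted ER stress protein that binds HSPA5, was at 7263 and 2611 in thyroid tissue and 2660 to 5692 in TFCOs, and its groups overlapped. DNAJB11 was at 2034 and 2202 in thyroid tissue against 1169 to 1653 in TFCOs.

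Thyroid tissue held other cells, and their markers moved with the comparison of TFCOs and thyroid tissue. Of the parathyroid and C cell markers, genes of neighbouring endocrine cells, 3 of 5 were called lower in TFCOs, their sum was 49706 and 91896 normalized counts in thyroid tissue, 21.8 to 103 in TFCOs and 42.5 to 54.4 in lung, and PTH was at 0 in all TFCOs. Of the fibroblast markers 7 of 7 were called lower, with sums of 26196 to 30416 in thyroid tissue and 133 to 344 in TFCOs, and LUM was at 0 in all TFCOs. Of the endothelial markers 5 of 6 were called lower (2841 to 6765 against 204 to 535), of the skeletal muscle markers 4 of 6 (41150 to 134878 against 1978 to 2652), of the adipocyte markers 2 of 5 (2319 to 7627 against 16.7 to 50.6) and of the leukocyte markers 2 of 6 (765 to 1290 against 49.2 to 1059). The part of these cells in the SDF2L1 and DERL3 differences was not tested. Plasma cell and B cell markers, of which 0 of 6 tested were called, summed to 45.7 and 263 in thyroid tissue, 62.4 to 95.6 in TFCOs and 698 to 1834 in lung. Lung epithelial markers differed in the other direction, with 1 of 6 called higher in TFCOs than in thyroid tissue (0.599% of all genes). Their median difference was 2.13, with 4 above 0 and 2 below. Their sums overlapped, at 11072 to 41938 in TFCOs and 15101 to 20340 in thyroid tissue.

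**Figure D4:**
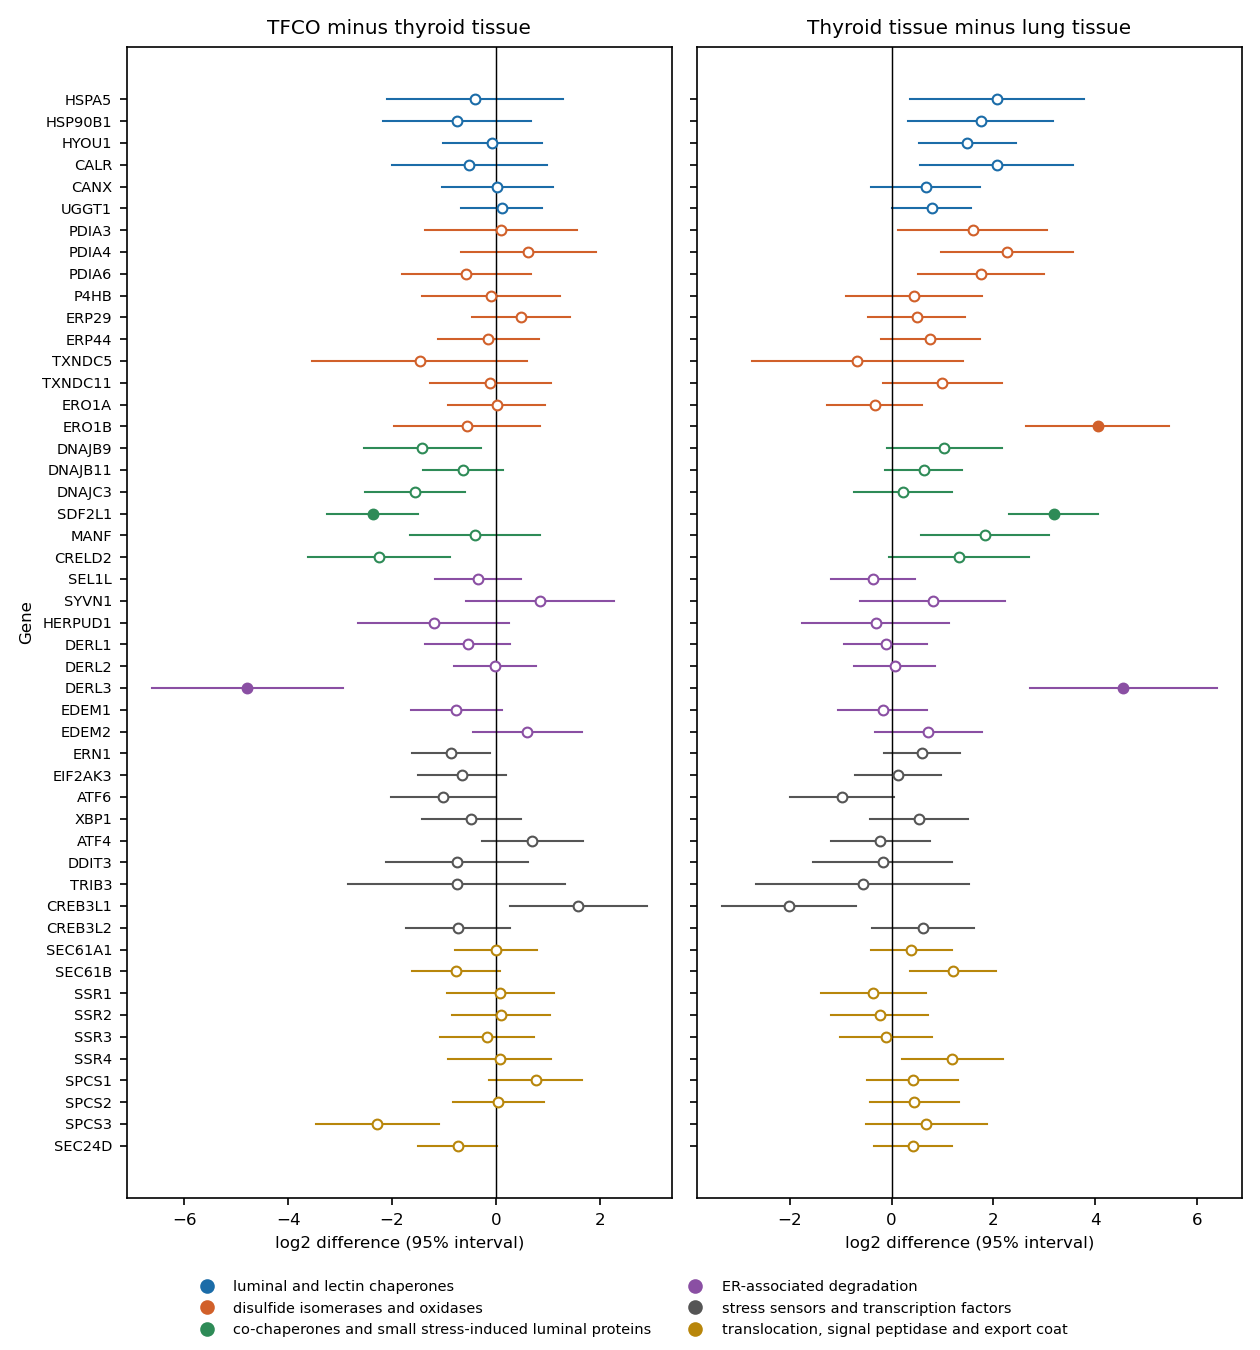
Log2 differences with 95% intervals for the 49 genes, grouped and coloured by role, for TFCO minus thyroid tissue (left) and thyroid tissue minus lung tissue (right), with filled points for genes past the threshold of adjusted p 0.05. SDF2L1 and DERL3 are filled on both sides and ERO1B on the right, the 6 co-chaperones all lie left of 0 on the left side, and the 6 chaperones all lie right of 0 on the right side.

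Among the remaining ERAD genes none passed in any comparison, and the median TFCO minus thyroid difference of the 8 was -0.45. SYVN1, the ubiquitin ligase of the pathway, and EDEM2, which trims mannose from misfolded glycoproteins, followed the library sets. SYVN1 was at 1754 to 2708 normalized counts in TFCOs and 2298 in thyroid tissue 1, but at 608 in thyroid tissue 2 and 599.7 and 757 in lung. EDEM2 was at 1839 to 2416 and 1986 against 882, 895 and 721. HERPUD1 was at 4641 in thyroid tissue 1 but 1516 in thyroid tissue 2, with 768 to 1999 in TFCOs and 3247 and 3349 in lung, and EDEM1 was at 1105 and 833 in thyroid tissue against 454 to 710 in TFCOs. SEL1L, the partner of SYVN1, was highest in lung (2434 and 2261), and DERL1 and DERL2 stayed within 685 to 1895 in all libraries.

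Of the 9 stress sensors and transcription factors only ATF6 passed, in the comparison of TFCOs with lung. XBP1, whose spliced messenger encodes the factor that drives the secretory programme, was at 2434 and 2599 normalized counts in early and late mThy14. It was at 4276 and 4269 in early and late mThy16, 5022 and 4099 in thyroid tissue, and 3189 and 3087 in lung. The line with more TG thus had less XBP1, and the mThy16 values reached those of thyroid tissue. These counts do not separate spliced from unspliced XBP1.

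ATF4, the factor translated when EIF2AK3 slows protein synthesis, was at 5697 and 3988 normalized counts in early and late mThy14. It was at 2933 and 2704 in early and late mThy16, 2750 and 1839 in thyroid tissue, and 2691 and 2555 in lung. The mThy14 libraries lay above all others, and the rest overlapped. DDIT3 (CHOP), an ATF4 target tied to cell death under ER stress, was at 205, 258, 129 and 88.3 in early mThy14, late mThy14, early mThy16 and late mThy16, 376 and 184 in thyroid tissue, and 276 and 322 in lung. TRIB3, which DDIT3 and ATF4 induce, was at 20.1 to 37.9 in TFCOs, 28.3 and 87.6 in thyroid tissue, and 104 and 53.3 in lung. In no comparison did ATF4, DDIT3, TRIB3 or XBP1 pass, and the TFCO minus thyroid difference of DDIT3 was -0.74 (log2, 95% interval -2.12 to 0.63).

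ATF6, the sensor that is cleaved in the Golgi to a transcription factor, was lower in TFCOs than in lung. It was at 188 and 405 normalized counts in early and late mThy14, 301 and 486 in early and late mThy16, 465 and 923 in thyroid tissue, and 1242 and 1336 in lung. All TFCOs were below both lung tissues, and thyroid tissue 1 was within the TFCO range. The difference was -1.98 ± 0.43 (log2, SE, limma, adjusted p = 0.0235), where 13.5% of all genes were called lower, and -0.995 with the library set as a term (adjusted p = 0.395). The gene is 1 of the 6 that were lower in the first library set. The sensors ERN1 and EIF2AK3 were above every TFCO library in both thyroid tissues, ERN1 at 974 and 1043 against 453 to 720 and EIF2AK3 at 538 and 721 against 344 to 508. CREB3L1, a membrane-bound factor of matrix-secreting cells, was at 138 to 210 in TFCOs, 70.8 and 47.9 in thyroid tissue and 300 and 189 in lung. CREB3L2 was at 875 to 980 in 3 TFCO libraries and at 3006 in late mThy14.

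Of the genes of translocation, signal peptide cleavage and export, none passed, and their median TFCO minus thyroid difference was 0.03. SEC61A1, the channel subunit, was nearly level in thyroid tissue (3213 and 3228 normalized counts) and TFCOs (2887 to 3505), with 2444 and 2487 in lung. SSR4, a subunit of the translocon-associated TRAP complex, was at 3392 and 2071 in mThy14, 1335 and 1329 in mThy16, 1725 and 1833 in thyroid tissue, and 905 and 673 in lung. SPCS3, a signal peptidase subunit, was at 1120 and 3155 in thyroid tissue and 301 to 439 in TFCOs, with a difference of -2.28 that missed the threshold (limma, adjusted p = 0.0606) and was -1.54 within the first library set. SEC24D, a cargo-binding subunit of the export coat, was at 1012 and 853 against 378 to 748. The other genes were SEC61B, SSR1, SSR2, SSR3, SPCS1 and SPCS2, which ranged from 615 to 4650 over all libraries.

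Against lung, the 49 genes gave 3 calls higher in thyroid tissue (SDF2L1, ERO1B and DERL3, 6.12% against 2.89% of all genes) and 0 lower (3.16% of all genes). At an unadjusted p under 0.05 by limma 14 of the 49 were higher and 1 lower, against 1583 and 1785 of the 14703 genes tested. In TFCOs against lung 3 were called higher (ERO1B, PDIA4 and HYOU1, 6.12% against 9.83% of all genes) and 1 lower (ATF6, 2.04% against 13.5%). Their median difference was 0.60 for thyroid tissue minus lung, against 0.03 for all genes tested, and 0.06 for TFCO minus lung, against 0.05. Without thyroid tissue 2, 14 genes were called higher and 2 lower in thyroid tissue than in lung (28.6% and 4.08%, against 14.8% and 14.5% of all genes), and with 1 lung library left out, whichever it was, 0 were called. Fits without a tissue held 1 library in its group, and their spread came from the other groups. With the tissue number as a replicate block 1 gene was called. With the 4 TFCO libraries treated as separate samples 13 genes were called higher and 6 lower in TFCOs than in lung (26.5% and 12.2%, against 23.2% and 21.9% of all genes), a count that sets passages of a line as independent. Markers of other cells moved with both comparisons. In thyroid tissue against lung 5 of 6 skeletal muscle markers and 4 of 5 parathyroid and C cell markers were called higher, and 3 of 6 endothelial and 4 of 6 lung epithelial markers lower. In TFCOs against lung 7 of 7 fibroblast, 6 of 6 endothelial, 4 of 6 leukocyte and 4 of 6 lung epithelial markers were called lower. In lung the sums were 23244 to 39981 normalized counts for fibroblast, 28643 to 47953 for endothelial and 3697 to 5639 for leukocyte markers, and 535822 to 1094010 for lung epithelial markers against 11072 to 41938 in TFCOs and 15101 to 20340 in thyroid tissue. Their part in the differences of the 49 genes was not tested.

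The promoters with an ERSE belonged to genes with larger thyroid tissue minus lung differences, with a median of 1.75 over the 10 genes against 0.44 over the 30 other genes that had a promoter. For TFCO minus lung the medians were 1.09 and 0.02, and for TFCO minus thyroid tissue -0.56 and -0.26. Both thyroid tissues were above both lung tissues for 8 of the 10 genes and for 16 of the 30. These are descriptions of the listed genes, and no test was made between them.

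Within the TFCOs, 30 of the 49 genes were higher in both mThy14 libraries than in both mThy16 libraries, against 29.1% of all genes tested, and 4 (CANX, EDEM1, XBP1 and SPCS2) were lower, against 26.4%. Each line is 1 culture of 1 animal, so that the difference between lines has no replicate and no test. The 30 genes included 10 of 10 disulfide isomerases and oxidases, 5 of 6 co-chaperones, 3 of 6 chaperones, 4 of 8 ERAD genes, 3 of 9 sensors and factors and 5 of 10 translocation and export genes. The median mThy14 minus mThy16 difference was 0.50 at the early and 0.36 at the late passage, against 0.06 and 0.00 for all genes, while TG differed by 3.37 and 2.76. ERO1B had the largest difference that was alike at both passages, 1.93 and 1.88. CALR (1.56 and 0.65), PDIA4 (1.43 and 0.45) and HSPA5 (1.02 and -0.07) differed mainly at the early passage.

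A finer order was seen in 21 genes, for which early mThy14 was above late mThy14 and late mThy14 above both mThy16 libraries, as for TG, against 15.3% of all genes. This order was chosen after the values were seen. The 21 genes were HSP90B1, HYOU1, CALR, PDIA3, PDIA4, PDIA6, P4HB, ERP29, ERO1A, ERO1B, DNAJB11, MANF, CRELD2, DERL1, ATF4, TRIB3, SEC61A1, SSR1, SSR2, SSR4 and SPCS1. The lines also differed in other markers. Of the 9 thyroid follicular cell markers 8 were higher in both mThy14 libraries, PAX8 for instance at 8273 and 7560 against 4259 and 3925 normalized counts. The leukocyte marker sum was 49.2 and 76.0 in mThy14 and 976 and 1059 in mThy16, of which CD14 made up 899 and 978. Of the 6 lung epithelial markers 2 were higher in both mThy14 libraries and 1, FOXJ1, was lower. FOXJ1 was at 35.1 and 442 in early and late mThy14, 6122 and 6016 in early and late mThy16, and 1241 and 1020 in lung. SFTPB was at 28177 and 1475 in early and late mThy14 and 3031 and 2066 in early and late mThy16. The part of these differences in the folding genes was not tested.

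**Figure D5:**
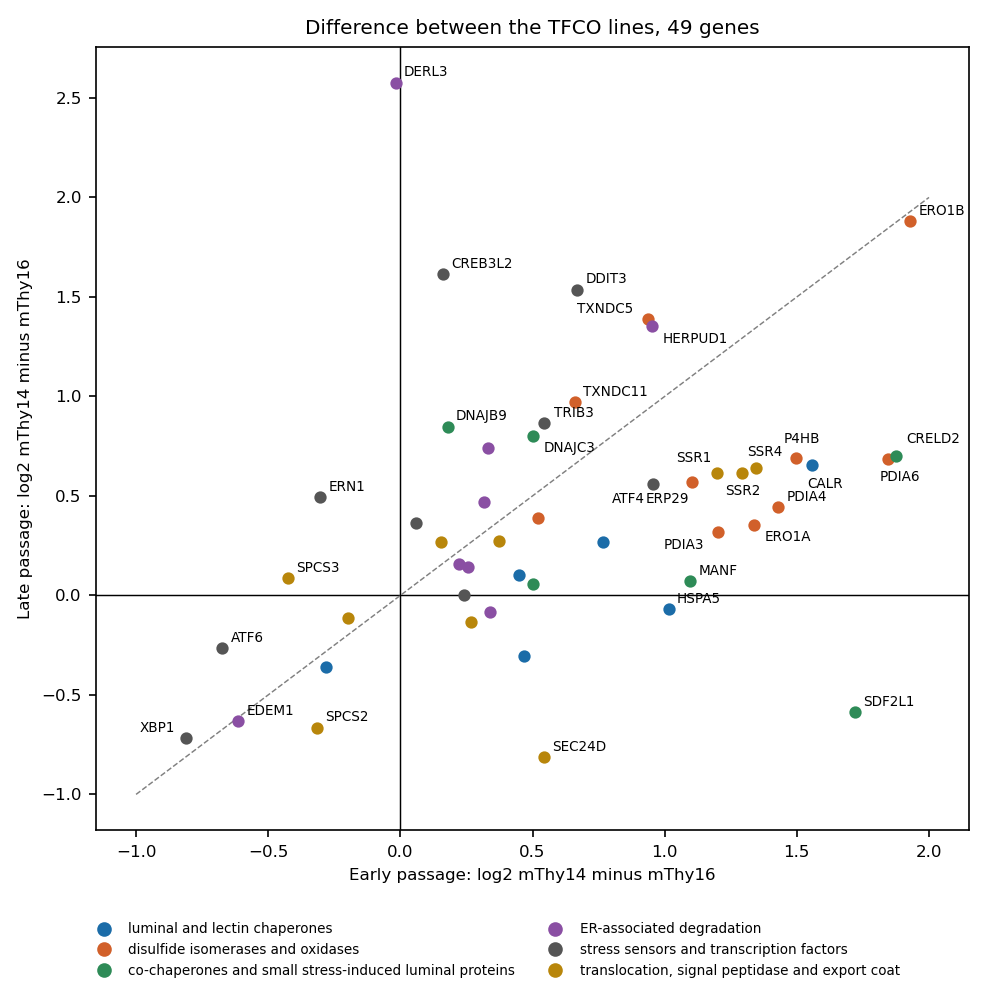
Log2 difference between the TFCO lines mThy14 and mThy16 at the early (x axis) and the late passage (y axis) for each of the 49 genes, coloured by role, with the line of equal differences dashed. All 10 disulfide isomerases and oxidases lie above 0 on both axes, ERO1B is near the line at 1.93 and 1.88, and SDF2L1 changes sign, from 1.72 to -0.59.

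With passage, 0 of the 49 genes were called (0.0% of all genes, where 166 of 14703 had an unadjusted p under 0.05 by limma and 0 of the 49 did). The late minus early differences of the 49 genes ran from -2.12 (DERL3) to 0.90 (ATF6), with a median of -0.10 against -0.02 for all genes. The interval for HSPA5 was -1.97 to 1.22 in this fit, which did not pair the libraries of a line. Changes of that size would not have been detectable in it with 2 libraries per group. When the line entered the fit as a replicate block, 0 of the 49 genes were called as well. In mThy14, with 1 library per passage, 16 of the 49 genes were more than 0.5 lower at the late passage (32.7% against 28.4% of all genes), and the median change was -0.19 against -0.04. The 6 chaperones had a median of -0.56 and ran from -0.98 (CALR) to 0.21 (CANX), while TG changed by -0.97. In mThy16 the chaperone median was 0.08 and TG changed by -0.36. SDF2L1 changed by -2.24 in mThy14 and 0.07 in mThy16, and DERL3 by -0.82 and -3.42, the latter resting on 3 reads at late passage.

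Other genes of these pathways, outside the 49, were read from lists of the same kind. Of 26 other ER folding and quality control genes 0 passed between TFCOs and thyroid tissue (median 0.25). An unadjusted p under 0.05 by limma was found there for 5 of the 26 and for 2741 of all 14703 genes. In thyroid tissue against lung 1 rose and 1 fell (2.89% and 3.16% of all genes), and in TFCOs against lung 5 rose and 2 fell (9.83% and 13.5% of all genes). WFS1, an ER membrane protein whose loss causes a diabetes syndrome, rose in both, by 2.33 in thyroid tissue (limma, adjusted p = 0.0206) and by 1.42 in TFCOs (adjusted p = 0.0406). QSOX1, a sulfhydryl oxidase of the Golgi, fell in both, by -2.49 (adjusted p = 0.0184) and -3.21 (adjusted p = 0.00373). ERLEC1, an ER lectin, rose in TFCOs against lung by 2.43 (limma, adjusted p = 0.0196), and FKBP2, a prolyl isomerase, fell by -5.51 (adjusted p = 0.0442). Both separated the library sets, ERLEC1 at 3805 in thyroid tissue 1 and 1615 in thyroid tissue 2, and FKBP2 at 31.6 and 1187. QSOX1 separated the sets as well, at 340 and 533.

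Of 17 measured oligosaccharyltransferase and other translocation genes 0 passed between TFCOs and thyroid tissue (median 0.25, with 0 at an unadjusted p under 0.05 by limma). In thyroid tissue against lung 1 rose (5.88% against 2.89% of all genes). In TFCOs against lung 6 rose and 1 fell (35.3% and 5.88%, against 9.83% and 13.5% of all genes). SEC11C, a catalytic subunit of the signal peptidase, rose in thyroid tissue by 3.03 (limma, adjusted p = 0.0197) and in TFCOs by 2.58 (adjusted p = 0.0160) against lung. SRP14, of the signal recognition particle, fell in TFCOs by -2.77 (adjusted p = 0.0298) and was likewise at 250 in thyroid tissue 1 and 1035 in thyroid tissue 2. Of 18 export and retrieval genes 1 passed, higher in TFCOs than in lung (5.56% against 9.83% of all genes). It was TMED2, a cargo receptor of coated vesicles, which rose by 1.85 (limma, adjusted p = 0.0461) and was at 3645 in thyroid tissue 1 and 1385 in thyroid tissue 2.

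Of 21 ATF4 and integrated stress response targets 0 passed between TFCOs and thyroid tissue (median 0.70, with 6 at an unadjusted p under 0.05 by limma) or between thyroid tissue and lung (median -0.72, with 3). Of all 14703 genes tested 2741 and 3368 were under 0.05 in these comparisons. In TFCOs against lung 3 of the 21 rose and 2 fell (14.3% and 9.52%, against 9.83% and 13.5% of all genes). PHGDH, the first enzyme of serine synthesis, was at 1129 and 1402 normalized counts in mThy14, 4135 and 4107 in mThy16, 519 and 189 in thyroid tissue, and 198 and 76.8 in lung. It rose in TFCOs against lung by 4.195 (limma, adjusted p = 0.0145), and unlike ATF4 itself it was higher in mThy16 than in mThy14. SHMT2 and DDIT4 rose by 1.88 (limma, adjusted p = 0.0280) and 1.74 (adjusted p = 0.0215), and NUPR1 fell by -3.10 (adjusted p = 0.0223). PHGDH, SHMT2 and NUPR1 separated the library sets, SHMT2 at 760 in thyroid tissue 1 and 422 in thyroid tissue 2, and NUPR1 at 356 and 683. DDIT4 did not separate them, at 327 and 434.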

How the data were processed

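Poly-adenylated RNA of 8 mouse libraries was sequenced, and the authors deposited normalized counts per gene (a signal: reads divided by a size factor per library, for which the methods name DESeq2). The processing notes name BWA 0.6.2-r126 and the builds mm10 and hg38, without roles, and the annotation is not given in the sources used here. Differences in counting between libraries could therefore move single genes. The methods describe a stranded poly-A kit and the labels an adapted CEL-Seq protocol. Tests ran on log2(normalized counts + 1) with limma 3.58.1 (R 4.3.3, trend on), for the 14703 genes that reached 10 in 2 or more libraries, and p-values were adjusted by Benjamini-Hochberg with a threshold of 0.05. The early and late library of a line were averaged, giving 6 units (2 lines, 2 thyroid tissues, 2 lung tissues), except for late against early TFCOs, fitted on 8 libraries. The fit was tested on simulated data. An exact permutation test of 2 against 2 cannot go below 0.333 and was not used. Members and gene lists were chosen with earlier results of these data known. Values by library were given for TG, 10 main genes, those past the threshold and those in the TG order, and other lists by up to 4 genes past the threshold. Promoters were RefSeq GRCm38.p6, and loci and transcript lengths GENCODE M21, matched for 47 of the 49 genes. The numbers of TFCO lines pair libraries of the same animal (correlation across genes of the line difference at both passages, 0.477).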

Additional observations from a re-analysis of the deposited data

Results flagged for a closer look

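In 5 of the 49 genes, 1 of the 4 TFCO libraries stood apart from the other 3 by Dixon's criterion at the 95% level, which flags about 1 in 20 groups by chance. The 4 libraries come from 2 lines and are not independent, so that this rate need not hold here. The same count over all genes tested was not made. Early mThy14 stood apart for HSPA5 (41447 normalized counts against 20507 to 23009), SDF2L1 (954 against 202 to 304) and MANF (5692 against 2660 to 2852). Late mThy14 stood apart for DNAJB9 (1321 against 662 to 749) and CREB3L2 (3006 against 875 to 980).

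In 4 genes the expression changed in opposite directions with passage in the lines, by at least 0.3 on the log2 scale in each. These differences were not tested because each line has 1 library per passage. Opposite changes were not counted over all genes tested, so no share stands beside the 4. Late minus early was -0.41 in mThy14 and 0.57 in mThy16 for ERO1A, -0.78 and 0.39 for CRELD2, -0.98 and 0.37 for SEC24D, and 0.33 and -0.54 for DDIT3.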

How the results depend on the processing

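Between TFCOs and thyroid tissue, 2 genes were called lower. This count was 1 with no trend, 0 with the library set as a term, 5 with TFCO libraries separate, 1 with early TFCOs only, and 0 to 7 when 1 library was left out (higher, 0 to 2). For thyroid tissue against lung, 3 were called higher, 5 after quantile normalization, 1 with the tissue number as a replicate block, and 0 to 14 without 1 library (lower, 0 to 2). The tissue numbers share only a number (correlation -0.073). Wherever a tissue was left out, 1 library stood for its group. For TFCOs against lung, the 3 higher and 1 lower became 0 and 0 with the library set as a term, 13 and 6 with TFCO libraries separate, and 0 to 10 and 0 to 5 without 1 library. The lower count was 2 under quantile normalization or the same total without TG, 0 with no trend and 3 with early TFCOs only. The line as a replicate block left 0 calls with passage, and the median late minus early difference of -0.10 became 0.21 without early mThy14 and 0.06 without late mThy16, with a range of -0.43 to 0.21. The 0 genes in the TG order (1.36% of all genes) became 4 after quantile normalization (8.16% against 1.54% of all genes). They became 2 with the same total without TG (4.08% against 1.93%). The count was 0 without thyroid tissue 1 (2.15% of all genes) and 6 without thyroid tissue 2 (12.2% against 5.2%), both settings chosen after seeing the data. The same total without TG moved the median of all genes by TFCO minus thyroid tissue to -0.19, beside -0.65 for the 49 genes, and quantile normalization moved that of TFCO minus lung to 0.32. The 30 genes higher in mThy14 stayed within 1.5 times under both scalings. The voom fit on recovered reads gave 0 higher and 2 lower, 3 higher and 0 lower, 4 higher and 1 lower, and 0 calls in the 4 comparisons, while its counts over all genes were smaller, 44 higher and 188 lower for TFCOs against thyroid tissue where the fit without voom gave 88 and 448, and 241 higher for thyroid tissue against lung where it gave 425. The edgeR test was not run. The value of DERL3 in late mThy16 rests on 3 reads. The share of all genes called moved with the setting as well. Lower in TFCOs than in thyroid tissue were 2.67% with no trend and 1.03% with the library set as a term. The share was 6.11% with TFCO libraries separate and 2.29% with early TFCOs only. Higher in thyroid tissue than in lung were 3.39% after quantile normalization and 0.544% with the replicate block. The cause of these shifts was not tested.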

Other observations

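The wider pathway lists differed between the TFCO lines as well, as a description without a test. Both mThy14 libraries were above both mThy16 libraries for 16 of 26 other ER folding and quality control genes, 10 of 17 oligosaccharyltransferase and other translocation genes and 10 of 18 export and retrieval genes, against 29.1% of all genes tested. They were below for 5, 1 and 3 genes, against 26.4%. The listed ATF4 and integrated stress response targets stood the other way, with 4 of 21 higher and 9 lower in mThy14, although ATF4 itself was higher there. This list leaves out DDIT3 and TRIB3, ATF4 targets among the 49 genes, which were higher in both mThy14 libraries.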
